A study of Homo sapiens with 3 samples.

Results

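The tumor necrosis factor (TNF) superfamily was followed across 3 states of a human fibroblast line. Its members were taken as every gene whose symbol, alone on its probe sets, begins with TNFSF (the ligands) or TNFRSF (the receptors) followed by a digit. This gave 33 of the 19775 genes named on the arrays: 10 ligand genes, 20 receptor genes and 3 noncoding genes that carry the symbol of a neighbouring receptor (TNFRSF10A-DT, TNFRSF10B-AS1 and TNFRSF14-AS1). Superfamily genes with older names, such as TNF, FAS and CD40, fall outside that rule and are described further on as surrounding genes.

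All 3 cultures were IMR-90 ER:Ras cells, a derivative of the IMR-90 line of normal human lung fibroblasts that carries an inducible Ras fusion, and each was hybridized to 1 array. The first culture, in oncogene-induced senescence (OIS), received 100 nM 4-hydroxytamoxifen (4-OHT) for 6 days. The second reached replicative senescence (RS) over 10 weeks of repeated passage, and the third was growing and untreated. All were kept in Dulbecco's modified Eagle's medium with fetal bovine serum. The growing culture had no 4-OHT, so Ras activity, 4-OHT itself and the days of treatment cannot be told apart, and nor can passage number and time in culture for RS.

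TNF superfamily ligands are trimeric proteins, mostly made as membrane proteins that proteases can release, and each binds 1 or a few receptors with cysteine-rich outer domains. Receptors with a death domain can recruit caspases through adaptor proteins, most of the others recruit TRAF proteins and activate NF-kappaB and MAP kinases, and decoy receptors bind ligand without passing on a death signal. In fibroblasts and other stromal cells the family is best known for inflammatory signaling, for sensitivity to the death ligand TRAIL, for restraint of bone resorption through osteoprotegerin and for contact with T cells.

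Values are MAS5 signals per probe set on a linear scale, and a gene is represented by its brightest probe set. Signals at or below 45.5, the median of all values on the 3 arrays, were treated as not measured and raised to that floor before a log2 ratio was formed. A fold is given as "at least" where the dimmer array was at or below the floor. With 1 array per condition there is no replicate and no test, and precision is set by how few arrays there are. The nearest thing to a repeat is a gene read by several probe sets. Over 6759 such genes the SD of the log2 ratio between probe sets was 0.36 in the OIS comparison and 0.33 in the RS comparison with growing cells, and 0.37 between the senescent cultures. For the 773 genes among them with no reading of 200 or more it was 0.42, 0.46 and 0.45. It holds probe error but no difference between cultures. All 8 fibroblast markers were above the floor on every array, with summed signals between 139488 and 158250. Within that list DCN was 2.59-fold lower in OIS than in growing cells, and DCN and LUM were 2.97-fold and 2.22-fold lower in OIS than in RS. The epithelial marker EPCAM read 49.1 in OIS, 194.2 in RS and 157.1 in growing cells, and of 6 epithelial markers 2 passed the floor. Of 19 blood cell markers, 7 passed the floor on at least 1 array, the brightest at 138.8.

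Windows before the transcription start of 4 genes at least 2-fold higher in OIS than in either other culture are shown first. Their differences in the sections below are of mRNA level. For TNFRSF9 the difference rests on 1 probe set. Of 10 alternative settings, 5 kept it over growing cells and 6 over RS. Each is the 250 bases upstream of an annotated start, taken from RefSeq (GRCh38.p14), all on the minus strand and written 5′ to 3′. Capitals mark matches to any of 4 motifs searched on both strands: AP-1 (TGANTCA), the NF-kappaB consensus, the interferon-stimulated response element (GAAA and GAAA 2 bases apart) and the TATA box (TATAAA). The TNFSF15 window, chr9:114792531-114792780, belongs to a start inside the annotated gene and not to its outer end. The others are chr1:173050942-173051191 for TNFSF18, chr3:172523431-172523680 for TNFSF10 and chr1:7940840-7941089 for TNFRSF9.
TNFSF15: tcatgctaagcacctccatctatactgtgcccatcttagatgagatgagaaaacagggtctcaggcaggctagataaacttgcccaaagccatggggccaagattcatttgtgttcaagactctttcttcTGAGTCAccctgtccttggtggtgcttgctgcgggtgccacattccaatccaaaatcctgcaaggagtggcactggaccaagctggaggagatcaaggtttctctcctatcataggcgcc
TNFSF18: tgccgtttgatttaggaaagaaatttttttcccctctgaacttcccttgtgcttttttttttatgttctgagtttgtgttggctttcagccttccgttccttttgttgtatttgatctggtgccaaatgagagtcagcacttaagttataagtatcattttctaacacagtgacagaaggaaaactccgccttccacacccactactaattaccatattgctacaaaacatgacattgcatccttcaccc
TNFSF10: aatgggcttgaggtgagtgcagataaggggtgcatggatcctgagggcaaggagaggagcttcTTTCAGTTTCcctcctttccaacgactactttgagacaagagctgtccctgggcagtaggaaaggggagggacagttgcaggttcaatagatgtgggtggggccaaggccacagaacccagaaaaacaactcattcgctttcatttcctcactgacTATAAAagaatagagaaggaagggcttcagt
TNFRSF9: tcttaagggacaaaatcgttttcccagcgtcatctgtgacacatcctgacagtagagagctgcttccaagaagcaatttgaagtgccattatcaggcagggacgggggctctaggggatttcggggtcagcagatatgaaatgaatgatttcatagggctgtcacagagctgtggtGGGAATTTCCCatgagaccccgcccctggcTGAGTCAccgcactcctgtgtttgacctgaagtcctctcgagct

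The TNFSF15 window holds 1 AP-1 match, 120 to 114 bases before the start, where the pattern TGANTCA is met on both strands. In the TNFSF10 window an interferon-stimulated response element on the opposite strand lies 187 to 178 bases and a TATA box 31 to 26 bases before the start. TNFRSF9 has an NF-kappaB match on each strand, the pair overlapping and spanning bases 74 to 64, and an AP-1 match at 44 to 38. None of the 4 motifs was found in the TNFSF18 window, which says only that those letters are not there. Such matches are common: of 35116 windows of this length in the table, 6.57% hold the AP-1 motif, 9.96% the NF-kappaB consensus, 3.02% the interferon-stimulated response element and 10.7% the TATA box. Among the 26 windows of the 21 members found in the table, 4 hold AP-1, 7 NF-kappaB, 4 the interferon-stimulated response element and 4 the TATA box. The NF-kappaB windows belong to TNFRSF9, TNFRSF14, TNFRSF19, TNFSF11, TNFSF13 and TNFSF14, and TNFSF11 and TNFSF14 were below the floor on all 3 arrays.

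Most of the family gave a reading above the floor. Of the 33 members, 26 passed the floor somewhere and 18 on all 3 arrays, and 22 passed it in OIS, 23 in RS and 22 in growing cells. Of all named genes 68.1% passed it on 1 or more arrays, against 78.8% of the members. The 7 members below the floor on every array were the ligands TNFSF11 (RANKL, which drives osteoclast formation) and TNFSF14 (LIGHT), the receptors TNFRSF11A (RANK), TNFRSF13B (TACI), TNFRSF13C (the BAFF receptor) and TNFRSF17 (BCMA), and the noncoding TNFRSF10B-AS1. The last 3 receptors named are known chiefly from B cells and plasma cells. Levels below the floor are not shown to be absent, and a reading above it does not by itself show that a transcript was present.

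**Figure D1:**
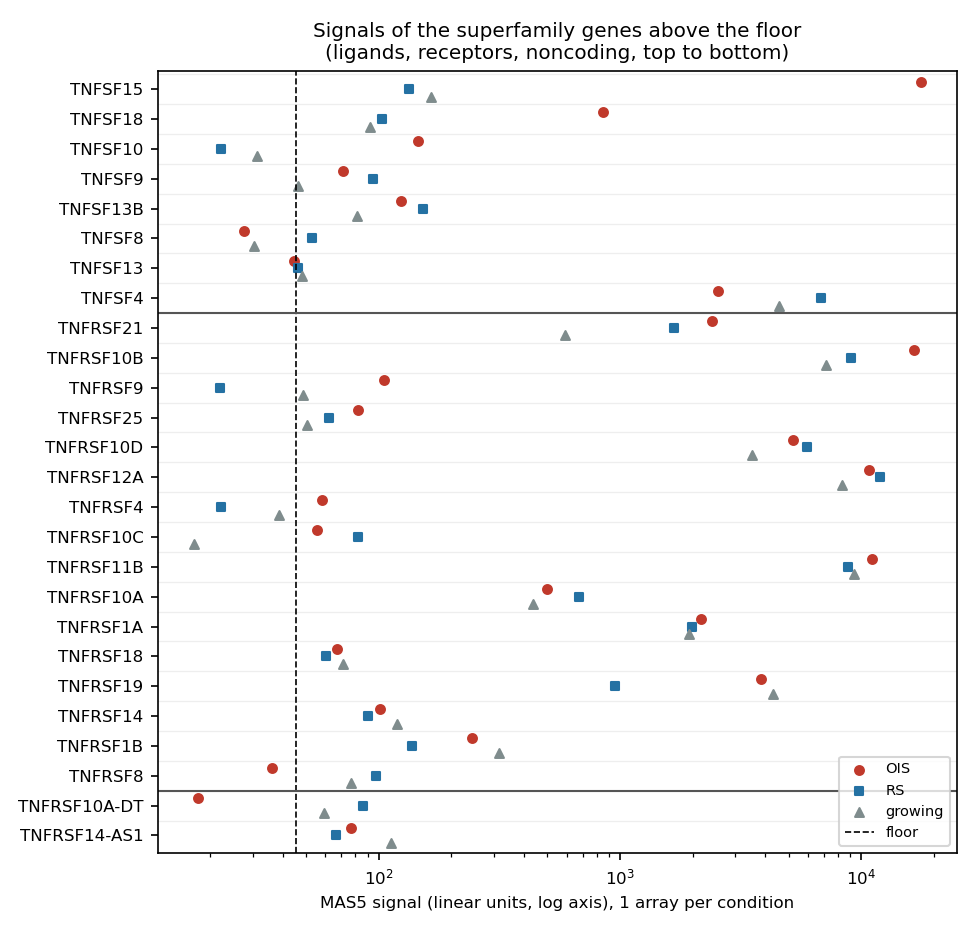
MAS5 signal of the 26 members above the floor on at least 1 array, on a log axis, with a circle for OIS, a square for RS and a triangle for growing cells (1 array each) and a dashed line at the floor of 45.5. TNFSF15 has its OIS point at 17619 and the other points at 133.7 and 163.9, TNFRSF19 has its RS point alone at the low end, and signals of different genes come from different probes and are not to be compared with each other.

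At or past 2-fold, 6 of the 25 members above the floor were higher in OIS than in growing cells (3 ligands and 3 receptors) and none was lower. Over all genes tested in that comparison 5.07% were higher and 6.83% lower by the same rule. In RS 2 of 24 were higher and 2 lower than in growing cells, where all genes gave 3.86% and 5.79%. Between the senescent states 5 of 26 were higher and 2 lower in OIS than in RS, where all genes gave 5.65% and 5.43%. With so few members, counts of 0 to 2 lie near those shares and are read as no result about the family. Short of 2-fold, the largest log2 differences downwards in OIS were those of TNFSF4 at -0.84, TNFRSF8 at -0.75 and TNFRSF14-AS1 at -0.56. At a lower floor of 11.7, TNFRSF8 and TNFRSF10A-DT were past 2-fold lower in OIS than in growing cells, where all genes gave 9.67%. The median log2 ratio to growing cells was 0.28 in OIS, over 25 members above the floor, and 0.25 in RS, over 24. Between OIS and RS it was 0.16 over 26 members. For all genes tested those medians were -0.02, -0.01 and 0.01. In RNA of whole cultures, more cells that make a transcript and more transcript per cell cannot be told apart. RS and OIS were both set against the same growing array.

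**Figure D2:**
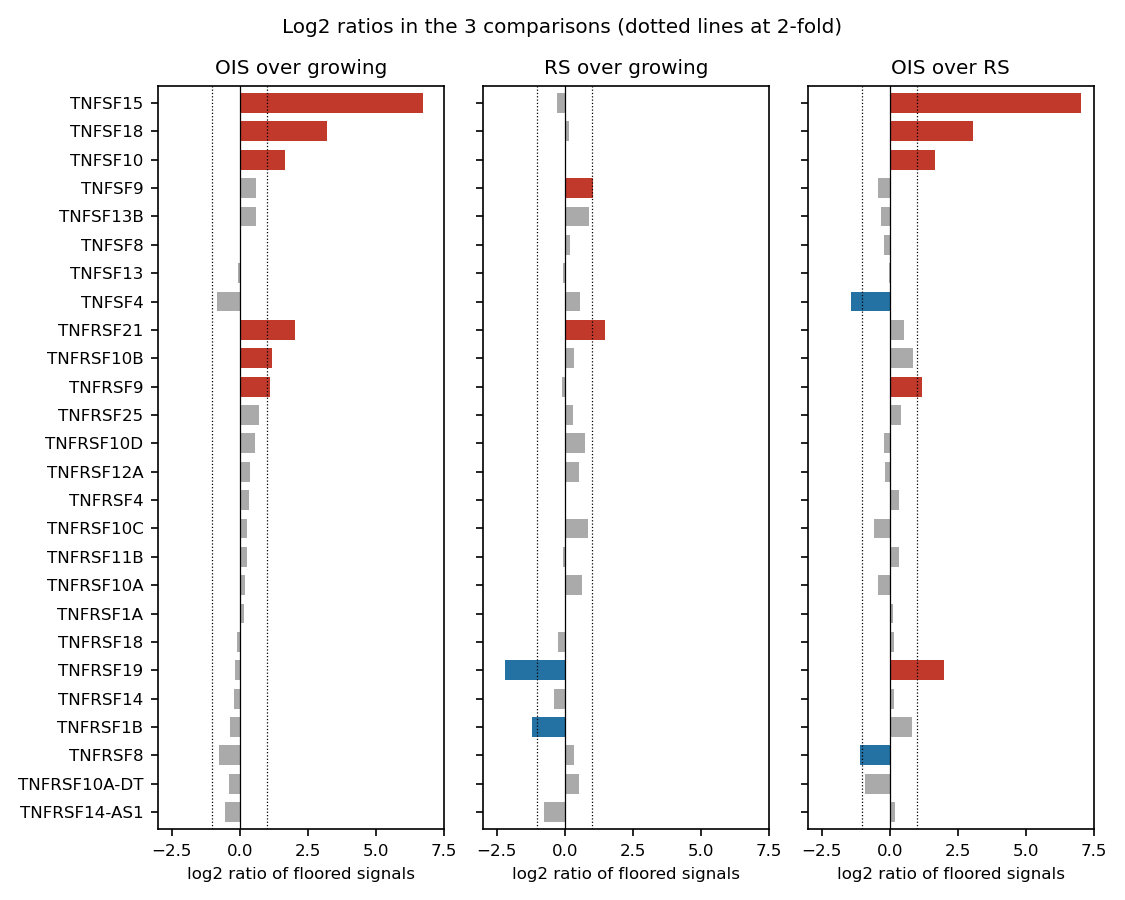
Log2 ratio of floored signals for the same 26 members in OIS over growing cells, RS over growing cells and OIS over RS, with dotted lines at 2-fold, red bars at or past it upwards and blue bars downwards. The TNFSF15 bar reaches 6.75 in the first panel and -0.29 in the second, whereas TNFRSF19 stands at -0.16 and -2.18.

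TNFSF15 showed the largest difference of any member. This ligand, also called TL1A or VEGI, binds the death domain receptor TNFRSF25, costimulates T cells and restrains the growth of endothelial cells. Its signal was 17619 in OIS, 133.7 in RS and 163.9 in growing cells. OIS cells stood alone, 108-fold above growing cells and 132-fold above RS cells, while RS cells lay 1.23-fold below growing cells. The second probe set read 3840 in OIS, against 30.6 in RS and 35.4 in growing cells, the last pair below the floor, and so was at least 84.4-fold higher in OIS than in either. The AP-1 match shown above is in the window of an internal start, and which start was used was not measured.

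TNFSF18, the ligand of the T cell receptor GITR, was the second ligand raised in OIS alone. It read 851.7 in OIS, 103.0 in RS and 92.3 in growing cells. That placed OIS cells 9.23-fold above growing cells and 8.27-fold above RS cells, and RS cells 1.12-fold above growing cells. The gene has a single probe set on the array, so no second reading was at hand.

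TNFSF10 encodes TRAIL, a ligand that can start apoptosis through death domain receptors and an interferon-inducible gene. Its 3 probe sets read 145.1, 125.0 and 109.7 in OIS. In RS they read 22.1, 25.5 and 25.7, and in growing cells 31.2, 24.0 and 20.3. Every OIS reading was above the floor and every other reading below it. The brightest was at least 3.19-fold higher in OIS than in either other culture, and the log2 ratios of the remaining pair were 1.46 and 1.27. These are low signals: among the 3358 genes whose brightest reading stayed under 200, 4.38% were at least 2-fold higher in OIS than in growing cells. At a floor of 88.8 TNFSF10 had a log2 ratio of 0.71, short of 2-fold.

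The remaining ligands differed less, and in part the other way. TNFSF4 (OX40L), a costimulator of T cells also made by stromal and endothelial cells, read 2541 in OIS, 6803 in RS and 4557 in growing cells. OIS cells were thus 1.79-fold below and RS cells 1.49-fold above growing cells, neither past 2-fold, and OIS cells 2.68-fold below RS cells. Its single probe set is of a kind that may also read related transcripts. TNFSF9, the ligand of CD137, read 70.9 in OIS, 94.9 in RS and 46.4 in growing cells, where it was barely above the floor. It was 1.53-fold higher in OIS and 2.05-fold higher in RS than in growing cells, and in RS this became a log2 ratio of 0.10 with the floor at 88.8.

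TNFSF13B, the B cell survival factor BAFF, read 123.4 in OIS, 153.1 in RS and 81.5 in growing cells by its brightest probe set, 1.51-fold higher in OIS and 1.88-fold higher in RS than in growing cells. A dimmer probe set read 116.1 in OIS and 109.8 in RS, against 42.8 in growing cells, and was at least 2.55-fold and at least 2.41-fold higher. The probe sets of TNFSF13B therefore fall on different sides of 2-fold. TNFSF13 (APRIL) had 44.6 in OIS, 46.1 in RS and 48.0 in growing cells, all next to the floor, and TNFSF8, the ligand of CD30, passed the floor in RS alone at 52.7.

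The 5 death domain receptors among the members were above the floor on every array. Of the 5, 2 were past 2-fold higher in OIS and 1 in RS than in growing cells, where all genes gave 5.07% and 3.86%. TNFRSF21 (DR6), known from neurons and lymphocytes, was the member higher than growing cells by over 2-fold in both senescent cultures. Its signal was 2398 in OIS, 1673 in RS and 592.3 in growing cells. OIS and RS cells stood 4.05-fold and 2.82-fold above growing cells and differed from each other by 1.43-fold. A second probe set gave log2 ratios of 1.32 and 1.22 for the same comparisons, and only 0.10 for OIS over RS.

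TNFRSF10B (DR5), a death receptor for TRAIL and a known p53 target, read 16528 in OIS, 9056 in RS and 7165 in growing cells. OIS cells were 2.31-fold above growing cells, and RS cells 1.26-fold. Both other probe sets above the floor in that comparison gave larger log2 ratios for OIS over growing cells, 1.33 and 1.54. The dimmest passed the floor in RS alone, at 56.2. TNFRSF10A (DR4), the other TRAIL death receptor, read 499.7 in OIS, 678.0 in RS and 437.3 in growing cells, a step of 1.14-fold for OIS and 1.55-fold for RS.

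TNFRSF1A, the main receptor for TNF on most cells, was nearly level at 2165 in OIS, 1993 in RS and 1925 in growing cells. TNFRSF25 (DR3), the receptor of TNFSF15, stayed close to the floor on every array. It read 82.2 in OIS, 61.9 in RS and 50.5 in growing cells, 1.63-fold higher in OIS than in growing cells. That probe set is of a kind that may also read related transcripts. Another of that kind read 57.8 in OIS, 61.7 in RS and 20.1 in growing cells. A further one read 11.2 in OIS, 58.3 in RS and 18.7 in growing cells, and the rest were below the floor on every array.

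None of the 3 decoy receptors analysed was called at 2-fold in any comparison, although 1 of them, TNFRSF10C, has only a lower bound. All genes gave between 3.86% and 6.83% in each direction, so with 3 genes this is no result about decoys. TNFRSF10D (DcR2), which binds TRAIL with a truncated death domain, read 5230 in OIS, 5966 in RS and 3524 in growing cells, so that OIS and RS cells were 1.48-fold and 1.69-fold above growing cells. TNFRSF11B, the secreted decoy osteoprotegerin, read 11097 in OIS, 8825 in RS and 9283 in growing cells. TNFRSF10C (DcR1) read 55.2 in OIS, 82.0 in RS and 17.2 in growing cells, the last below the floor, which puts OIS at least 1.21-fold and RS at least 1.80-fold above growing cells. At a floor of 11.7 another probe set was the brightest, with 55.8 in OIS, 66.4 in RS and 29.5 in growing cells. Its log2 ratio for RS over growing cells was 1.17, past 2-fold. Both probe sets are of a kind that may also read related transcripts, and the remaining ones of TNFRSF10C stayed below 45.5 on every array. Another decoy, TNFRSF6B, was not analysed here.

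Of 12 TRAF-binding receptors 8 were above the floor. In OIS against growing cells 1 of these 8 was past 2-fold higher and none lower, where all genes gave 5.07% and 6.83%. In RS 2 of the 7 above the floor in that comparison were past 2-fold lower and none higher, where all genes gave 5.79% and 3.86%. Counts this small are read as no result about the group. TNFRSF19 (TROY), an orphan receptor of the nervous system, skin and mesenchyme and a target of Wnt signaling, read 3839 in OIS, 951.9 in RS and 4300 in growing cells. RS cells stood apart, 4.52-fold below growing cells, while OIS cells were 1.12-fold below growing cells and 4.03-fold above RS cells. Its dimmer probe sets read 195.7 and 121.3 in OIS, 61.6 and 46.1 in RS, and 217.5 and 139.1 in growing cells. All 3 probe sets had their lowest reading in RS, and the log2 ratios of the dimmer pair for RS over growing cells were -1.82 and -1.59.

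TNFRSF1B, the second TNF receptor, known from immune and endothelial cells, read 244.5 in OIS, 136.7 in RS and 314.2 in growing cells. It was 2.30-fold lower in RS and 1.29-fold lower in OIS than in growing cells, on a single probe set. TNFRSF12A (Fn14), which receives the cytokine TWEAK and is common on fibroblasts, read 10716 in OIS, 11997 in RS and 8324 in growing cells, and so was 1.29-fold and 1.44-fold higher.

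Costimulatory receptors typical of lymphocytes were near the floor. TNFRSF9 (CD137) read 104.7 in OIS, 22.0 in RS and 48.6 in growing cells, 2.15-fold higher in OIS than in growing cells and at least 2.30-fold higher than in RS. Its 2 other probe sets were below the floor on every array, so this difference rests on 1 probe set, again of a kind that may also read related transcripts. TNFRSF8 (CD30) read 36.0 in OIS, 97.3 in RS and 76.4 in growing cells, and was at least 2.14-fold lower in OIS than in RS. With the floor at 88.8 neither receptor was past 2-fold.

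TNFRSF4 (OX40) passed the floor in OIS alone at 58.1. TNFRSF14 (HVEM) read between 90.5 and 118.6 and TNFRSF18 (GITR), the receptor of TNFSF18, between 60.2 and 71.1 on the 3 arrays. The noncoding TNFRSF14-AS1 read 76.5 in OIS, 66.4 in RS and 112.4 in growing cells. TNFRSF10A-DT read 17.8 in OIS, 86.0 in RS and 59.5 in growing cells. Strand was not tested, so TNFRSF14-AS1 cannot be told apart from an overlapping sense transcript.

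**Figure D3:**
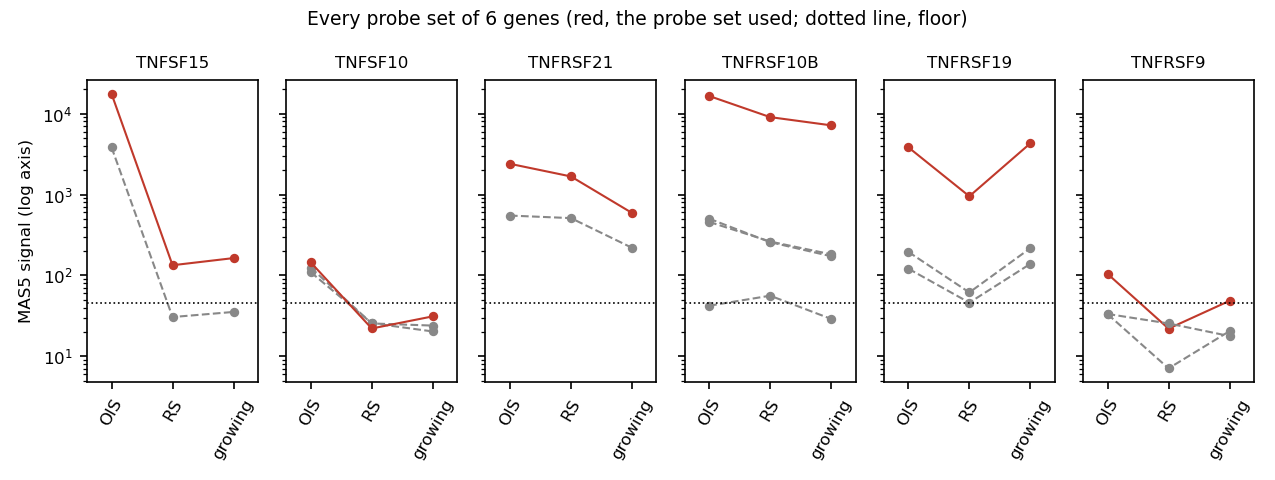
MAS5 signal on a log axis of every probe set of 6 members in OIS, RS and growing cells (1 array each), with the probe set used in red, the others in grey, lines joining the readings of 1 probe set and a dotted line at the floor. All probe sets of TNFSF15 and TNFSF10 peak in OIS and all 3 of TNFRSF19 are lowest in RS, while for TNFRSF9 only the red probe set passes the floor.

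Pairing each ligand with its receptors, the ligands past 2-fold in OIS were not matched by their own receptors, except TRAIL by TNFRSF10B. TNFSF15 was 108-fold and its receptor TNFRSF25 was 1.63-fold higher in OIS than in growing cells. TNFSF18 was 9.23-fold higher and its receptor TNFRSF18 1.06-fold lower. TNFSF10 was at least 3.19-fold and its receptors TNFRSF10B and TNFRSF10A were 2.31-fold and 1.14-fold higher. The decoy receptors TNFRSF10D and TNFRSF10C were 1.48-fold and at least 1.21-fold higher. Conversely TNFRSF9 was 2.15-fold and its ligand TNFSF9 1.53-fold higher.

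Across the family, the 17 differences at or past 2-fold belonged to 11 members. For 9 of the 17 another probe set passed the floor in that comparison, and for all 9 every such probe set was past 2-fold the same way. The other 8 rest on 1 probe set. For TNFSF15 and TNFSF10 the further probe sets passed the floor in OIS alone, so the direction of their floored ratios was fixed in advance. The 15 members above the floor but never past 2-fold had log2 ratios to growing cells between -0.56 and 0.70 in OIS and between -0.76 and 0.91 in RS. Between OIS and RS theirs lay between -0.92 and 0.41. Of 14 members whose brightest reading stayed under 200, 13 were above the floor on 1 of the OIS and growing arrays, and 2 were past 2-fold higher and none lower in OIS, where all such dim genes gave 4.38% and 4.82%. In RS against growing cells 1 of 12 was higher and none lower (dim genes 4.06% and 4.61%), and in OIS against RS 2 of 14 were higher and 1 lower (dim genes 5.06% and 4.91%).

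Superfamily genes under older names were read by the same measure. Of 6 such ligands on the array 3 were above the floor, and none was past 2-fold in any comparison. All genes gave between 3.86% and 6.83% in each direction, so with so few genes this is no result about the group. TNF itself read 6.8 in OIS, 5.9 in RS and 6.2 in growing cells, far below the floor. FASLG and CD70 passed it in OIS alone, at 50.7 and 57.5, and LTB in RS alone, at 51.0. Of 8 receptors 5 were above the floor and none past 2-fold, which is likewise no result about them. FAS, the receptor of the death ligand FASLG, read 3001 in OIS, 4451 in RS and 2836 in growing cells, and CD40, a receptor of T cell help, 138.6 in OIS, 128.4 in RS and 105.3 in growing cells. Median log2 ratios of these receptors were 0.16 for OIS and 0.29 for RS over growing cells.

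Adaptors and effectors of the pathway were mostly below 2-fold too. None of 5 TRAF genes passed it in any comparison, where all genes gave between 3.86% and 6.83% in each direction. TRAF1 read 83.2 in OIS, 109.1 in RS and 77.5 in growing cells. The list medians were 0.10 in OIS and 0.38 in RS over growing cells. Of 9 death domain adaptors, caspases and kinases on the array 7 were above the floor. Of these 1, the necroptosis effector MLKL, was past 2-fold higher in OIS and in RS, where all genes gave 5.07% and 3.86%. Such small counts are no result about either list. The medians of this list were 0.15 in OIS and -0.17 in RS. MLKL read 676.7 in OIS, 588.5 in RS and 278.5 in growing cells, 2.43-fold and 2.11-fold higher in the senescent cultures, although RIPK3, the kinase that activates it, was below the floor on all 3 arrays. CASP8, the initiator caspase of death receptors, read 721.2 in OIS, 508.7 in RS and 802.1 in growing cells. BIRC3 was not analysed here.

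Of 8 IAP proteins and NF-kappaB brakes 2 were past 2-fold higher in OIS and none in RS, with medians of 0.42 and 0.12, where all genes gave 5.07% and 3.86%. TNFAIP3 (A20), an enzyme that ends NF-kappaB signaling, read 2694 in OIS, 349.1 in RS and 508.6 in growing cells, 5.30-fold higher in OIS and 1.46-fold lower in RS than in growing cells. TNIP1, a partner of A20, read 5970 in OIS, 3725 in RS and 1980 in growing cells, 3.02-fold and 1.88-fold higher.

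The 7 genes listed as TNF-alpha-induced proteins mostly take their name from a response to TNF in other cells. TNFAIP8L1 and TNFAIP8L3 take theirs from TNFAIP8. Of the 7, 6 were above the floor. In OIS the median was 1.04, and 3 of them were past 2-fold higher and none lower, where all genes gave 5.07% higher and 6.83% lower. In RS 4 were past 2-fold lower and none higher (median -1.15), where all genes gave 5.79% lower and 3.86% higher. TNFAIP2, TNFAIP3 and TNFAIP6 were higher in OIS and lower in RS than in growing cells, TNFAIP8 and TNFAIP8L1 were lower in both, and TNFAIP1 was higher in both. TNFAIP6 (TSG-6), a secreted hyaluronan-binding protein, read 1964 in OIS, 83.4 in RS and 729.8 in growing cells, 2.69-fold higher in OIS and 8.75-fold lower in RS than in growing cells. TNFAIP2 read 547.0 in OIS, 108.3 in RS and 234.3 in growing cells. TNFAIP8, an inhibitor of caspase activation, was 1.34-fold lower in OIS and 2.49-fold lower in RS, and its relative TNFAIP8L1 1.54-fold and 2.29-fold lower. TNFAIP1 was 1.82-fold higher in OIS and 1.87-fold higher in RS. TNFAIP3 counts here as well as among the brakes.

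Of the 5 noncanonical NF-kappaB genes none was past 2-fold against growing cells, where all genes gave between 3.86% and 6.83% in each direction. With so few genes this is no result about the list. Their medians were 0.37 in OIS and 0.01 in RS. RELB, the subunit that partners NFKB2, read 279.2 in OIS, 128.0 in RS and 173.6 in growing cells, a log2 difference of 1.13 between OIS and RS. Among 6 genes of ligand shedding, RHBDF1, a regulator of the sheddase ADAM17, read 3859 in OIS, 2762 in RS and 1406 in growing cells, 2.75-fold and 1.96-fold higher. RHBDF2, its relative, was at least 2.15-fold higher in both. Medians of the 6 were 0.45 in OIS and 0.23 in RS. ADAM17, which releases TNF and TNF receptors from the membrane, read 1624 in OIS, 1299 in RS and 1268 in growing cells.

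**Figure D4:**
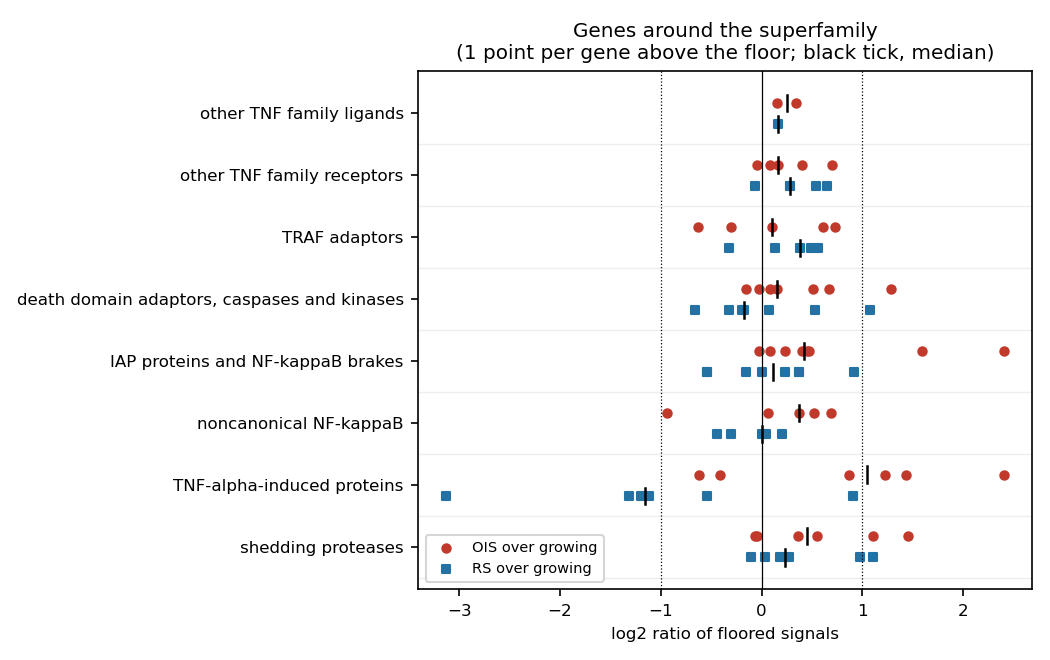
Log2 ratio over growing cells of genes around the superfamily, with a circle for each gene in OIS, a square for each gene in RS and a black tick at the median of the genes above the floor in that comparison. TNF-alpha-induced proteins have their medians at 1.04 in OIS and -1.15 in RS, and the older-named ligands and receptors all lie between the dotted lines at 2-fold.

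Because TNFSF15, TNFSF18 and TNFSF4 are also made by endothelial cells, markers of that cell type are given beside them. Of 7 endothelial markers 4 were above the floor on each array. Of these 4, 3 were at least 2-fold higher in OIS than in growing cells and none in RS, where all genes gave 5.07% and 3.86%. ROBO4 read 576.4 in OIS, 58.5 in RS and 105.3 in growing cells, PECAM1 135.0 in OIS, 52.7 in RS and 49.0 in growing cells, and VWF 130.5 in OIS, 80.9 in RS and 59.7 in growing cells. CDH5, KDR and TIE1 were below the floor on all 3 arrays, at 2.9, 27.1 and 2.4 in OIS. The remaining marker above the floor, TEK, read 1275 in OIS, 2033 in RS and 1251 in growing cells. Summed over the list, signals were 2149 in OIS, 2240 in RS and 1481 in growing cells. Without TEK, the brightest gene of the list, they were 874.3 in OIS, 206.4 in RS and 229.8 in growing cells. ROBO4 alone gave 576.4 of that OIS sum. The part of other cell types in the ligand differences was not tested.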

How the data were processed

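Labels assigned 1 array each to OIS, RS and growing cells. Per the submitters' processing notes MAS5 was used, and the deposited value of a probe set is its intensity on a linear scale. No version or settings of MAS5 appear in the labels. The 2% trimmed mean was 497 on each array, so a common shift of all genes would not be seen. Depth has no meaning for arrays, whose number limits the precision.

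Genes were named from the platform annotation. Of 54613 probe sets 41091 name 1 gene, 1801 several and 11721 none, and only the first kind was used, with 66 probe sets for the 33 members. All 33 matched the RefSeq table (GRCh38.p14) by gene identifier. A probe set's values were raised to the floor of 45.5, log2 was taken, and the probe set with the highest mean represented its gene. A gene was tested in a comparison when above the floor on at least 1 of its 2 arrays, and called at or past 2-fold.

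No test between conditions was possible. The members, gene lists, motifs and thresholds were chosen with earlier results of these data known. Named with their signals were members past 2-fold in any comparison, list genes past 2-fold (at most 4 each way) and TNF, FAS, CD40, TRAF1, CASP8 and BIRC3. Other members and list genes were added after their values were seen. The steps were tested on simulated data. Alternatives are given in the closing section. Python 3.11.15, numpy 2.4.6, pandas 2.3.3 and matplotlib 3.10.9 were used.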

Additional observations from a re-analysis of the deposited data

Results flagged for a closer look

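In 3 members OIS and RS differed from growing cells in opposite directions, each time by more than the SD between probe sets of all genes (0.36 in OIS and 0.33 in RS). The difference was not tested. The log2 ratio of TNFSF4 was -0.84 for OIS and 0.58 for RS over growing cells. For TNFRSF8 it was -0.75 and 0.35, and for the noncoding TNFRSF10A-DT -0.39 and 0.53, with the OIS reading of both below the floor. Both are dim, and among dim genes that SD was 0.42 in OIS and 0.46 in RS, which TNFRSF8 in RS and TNFRSF10A-DT in OIS do not exceed.

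A signal higher than in growing cells was also present in probe sets left out because their annotation lists several genes, among them a superfamily symbol. Of 10 such probe sets 2 were past 2-fold higher in a senescent culture. By the same rule 5.07% of all genes tested were higher for OIS and 3.86% for RS. With 10 probe sets this is no result about them as a group. The first read 300.5 in OIS, 95.1 in RS and 141.8 in growing cells, with a log2 ratio of 1.08 for OIS over growing cells. The second read 51.5 in OIS, 97.7 in RS and 34.1 in growing cells, with a log2 ratio of 1.10 for RS over growing cells. Another was lower in OIS, at 80.4 in OIS, 211.9 in RS and 166.7 in growing cells, which is 2.07-fold below growing cells and 2.64-fold below RS. The names of the first pair end in _x_at. Which of its listed genes each probe set reads was not tested.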

How the results depend on the processing

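Of the 17 differences at or past 2-fold, 7 were kept under all 10 alternatives: TNFSF15 and TNFSF18 in OIS over growing cells and over RS, TNFRSF21 in OIS over growing cells, and TNFRSF19 in RS over growing cells and OIS over RS. None of 285 recomputed log2 ratios of the 11 named members turned a called direction round, and 29 moved by more than the spread between probe sets. TNFSF15 ranged between 6.40 and 6.77 for OIS over growing cells. With a floor at the 25th percentile (11.7), 8 members were higher and 2 lower in OIS than in growing cells, 4 higher and 6 lower in RS than in growing cells, and 10 higher and 4 lower in OIS than in RS, since more dim members count. All genes gave 8.79% and 9.67%, 7.54% and 9.23%, and 9.83% and 8.97% at that floor. At the 60th percentile (88.8) 1 member was higher in RS than in growing cells, and 3 were higher and 1 lower in OIS than in RS. All genes gave 3.41%, 5.22% and 5.04% there. TNFSF10 and TNFRSF9 lost their calls in OIS at that floor, at log2 0.71 and 0.24. So did TNFSF9 in RS over growing cells at 0.10 and TNFRSF8 in OIS over RS at -0.13. Without a floor and with a pseudocount of 16, 1 member was lower in OIS than in growing cells and 4 lower in OIS than in RS. All genes gave 6.43% and 5.79% in that setting. Leaving out probe sets ending in _s_at or _x_at left 17 members above the floor. It left 1 lower in OIS than in RS (all genes 5.8%), since TNFSF4 has no other probe set, and TNFRSF9 stood at 0.00. At 3-fold, 0 members were higher and 1 lower in RS than in growing cells, and 0 lower in OIS than in RS. All genes gave 1.13%, 2.44% and 1.93% at that fold. By its dimmest probe set above the floor TNFRSF10B was at 0.00 for OIS over growing cells. Quantile normalization, centring and dropping the filter kept every call. The count above the floor has no value for centring, the pseudocount, the filter and 3-fold. No paired analysis was possible because each condition has 1 array, and none could be left out. Readings near the floor, such as those of TNFSF9, TNFRSF8 and TNFRSF9, also limit the precision.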

Other observations

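Several members are neighbours in the genome, with 0 protein-coding genes between them in the RefSeq order. TNFSF18 and TNFSF4 lie side by side on chromosome 1, where TNFSF18 was 9.23-fold higher and TNFSF4 1.79-fold lower in OIS than in growing cells. On chromosome 9 TNFSF15 has TNFSF8 as its neighbour, and TNFSF8 was below the floor in OIS and in growing cells, at 27.5 and 30.4. TNFRSF8 and TNFRSF1B adjoin on chromosome 1, with log2 ratios for RS over growing cells of 0.35 and -1.20. The 4 TRAIL receptor genes TNFRSF10B, TNFRSF10C, TNFRSF10D and TNFRSF10A follow each other on chromosome 8, and in RS over growing cells their log2 ratios were 0.34, at least 0.85, 0.76 and 0.63. Whether neighbours are regulated together was not tested.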
